A study of Homo sapiens with 10 samples.

Results

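Hepatocyte growth factor (HGF), its receptor MET and the genes that control the activation of HGF were examined in the established cell line PANC-1, which derives from a human ductal adenocarcinoma of the pancreas. The group holds 7 of the 27884 genes in the expression files: HGF, MET, MST1R, ST14, SPINT1, SPINT2 and GAB1. HGF was picked because its level differed strongly between the groups, so its values are a description and carry no test. The other 6 genes were picked by their role, as receptors, activating protease, inhibitors and adaptor. All 7 were among the 17518 genes tested. HGF passed the filter on low values through the shPAR1 libraries alone, since 5 of these and 0 of the shCtrl libraries reached a normalized count of 10.

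Total RNA depleted of ribosomal RNA was sequenced from 5 shPAR1 and 5 shCtrl libraries. shPAR1 cells held a hairpin delivered by lentivirus that targets F2R, the gene for protease-activated receptor 1 (PAR1), and shCtrl cells held a control hairpin. All cells were selected with puromycin and grown attached in medium with serum. Each arm used 1 hairpin clone in 1 cell line, so knockdown of F2R and any other effect of that hairpin cannot be told apart. The labels do not say whether the libraries came from separate cultures, and p-values measure only the spread between these libraries, which may be technical. The shPAR1 libraries bear the numbers 1 to 5 and the shCtrl libraries 6 to 10.

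HGF is secreted as an inactive single chain. Serine proteases such as matriptase, the product of ST14, cut it next to an arginine into 2 linked chains, and only the cut form activates MET, a receptor tyrosine kinase. HAI-1 and HAI-2, encoded by SPINT1 and SPINT2, are membrane-bound Kunitz inhibitors of these proteases. Active MET is phosphorylated on docking tyrosines in its tail and recruits the docking protein GAB1, which passes the signal on to the Ras, PI3K and SHP2 pathways. MST1R (RON) is the closest relative of MET, and its ligand, macrophage-stimulating protein (MST1), is built and activated like HGF. In the pancreas HGF is known mainly as a product of stromal cells that acts on MET in the epithelium.

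The steps that link these genes can be read in their sequences. The coding sequence around the bond that is cut on activation is shown for both ligands and for matriptase, which is activated at the same kind of bond, with the arginine and valine codons that flank the bond in capitals:
HGF, chr7:81710194-81710217, minus strand, exon 13 of 18: aaacaattgCGAGTTgtaaatggg
MST1, chr3:49685303-49685326, minus strand, exon 13 of 18: tccaagctgCGCGTGgttgggggc
ST14, chr11:130199974-130199997, plus strand, exon 16 of 19: agacaggctCGTGTTgttgggggc
HGF shared 11 of 24 bases with MST1 and 13 of 24 with ST14 in this window, and MST1 and ST14 shared 15 of 24. The docking sites of both receptors are shown with their tyrosine codons in capitals:
MET, chr7:116795996-116796025, plus strand, exon 21 of 21: TATgtccatgtgaacgctactTATgtgaac
MST1R, chr3:49887424-49887453, minus strand, exon 20 of 20: TATgtgcagctgccagcaaccTACatgaac
These shared 20 of 30 bases, and both lie in the last exon. The coding sequence of GAB1 held 3 runs of a tyrosine codon followed by 2 further codons and a methionine codon, the form of site that binds PI3K. Sequences are from GENCODE 44 transcripts on GRCh38. The files give 1 value per gene, so the expression values do not resolve these sites.

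Depth ran from 15335264 to 22876248 counts per library in shPAR1 cells and from 18317098 to 25369056 in shCtrl cells. The share of mitochondrial genes was 7.37% to 9.08% for shPAR1 and 5.71% to 7.07% for shCtrl. F2R was 0.34 times its shCtrl level in shPAR1 cells and its groups did not overlap (log2 difference -1.56, standard error 0.040, adjusted p = 7.69e-15 from limma). Of all tested genes 40.9% passed an adjusted p of 0.05 in limma, with 19.0% higher and 21.9% lower in shPAR1 cells, and the median log2 difference was -0.0046. Groups did not overlap for 29.2% of all tested genes. Each log2 difference below is shPAR1 minus shCtrl of log2(normalized count + 1), which understates changes of genes with low counts.

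HGF was the member with the largest difference. Its normalized counts were 306, 263.72, 310.67, 303.44 and 308.9 in the shPAR1 libraries and 0.907, 4.498, 7.543, 6.052 and 7.846 in the shCtrl libraries. All shPAR1 libraries were thus far above all shCtrl libraries, and within shPAR1 library 2 lay below the other 4. The underlying reads were 246, 308, 274, 284 and 301 against 1, 5, 7, 6 and 10, so each shCtrl value rests on 10 reads or fewer. On the log2 scale HGF stood at 8.22 ± 0.10 in shPAR1 cells and at 2.49 ± 0.91 in shCtrl cells (mean ± SD, n = 5 each), a difference of 5.73. The ratio of mean normalized counts was 55.6. The same ratio from 1413 reads against 29 was 55.3, with an exact 95% interval of 38.3 to 82.9 that covers counting error only. The HGF gene (ENSG00000019991) lies on chromosome 7 of GRCh38 from 81699010 to 81770438 on the minus strand.

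The difference of HGF ranked 3 of 17518 from the top. CPN1 (6.32) and LGR5 (6.23) lay above it, and TSPAN8 (5.70) and COL3A1 (5.28) followed. Over the 16 alternatives HGF ranked 3 or 4, and with a pseudocount of 5 LGR5 and COL3A1 lay above it. These ranks use the values by which HGF was chosen and are given without a test.

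**Figure D1:**
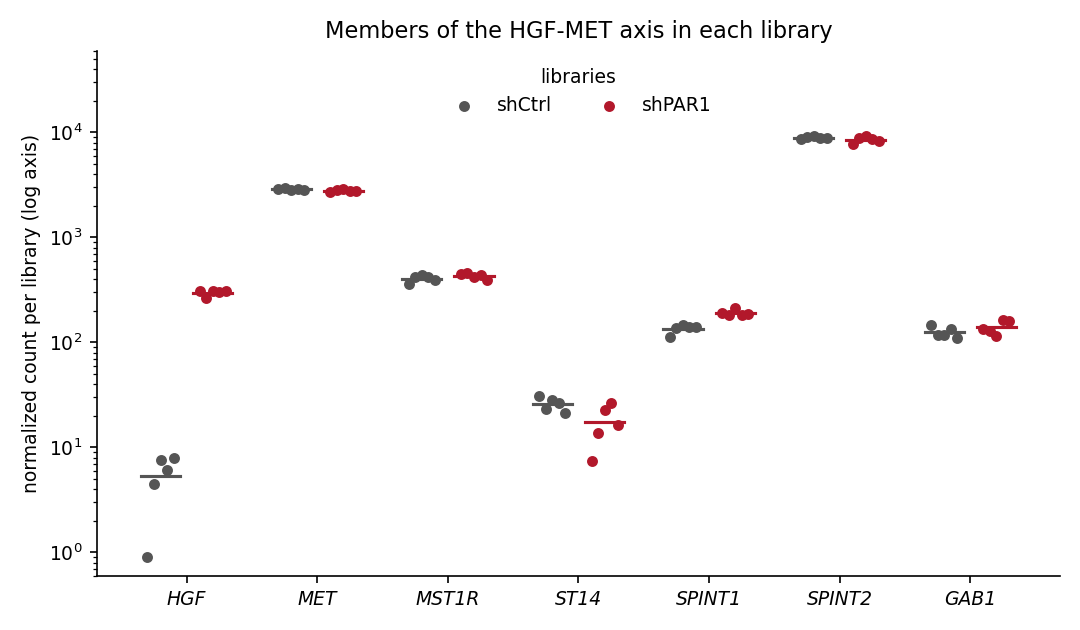
Normalized counts of the 7 member genes in each library (log axis), with shPAR1 libraries 1 to 5 and shCtrl libraries 6 to 10 as points. HGF lies at 263.72 to 310.67 in shPAR1 and at 0.907 to 7.846 in shCtrl libraries, SPINT1 also separates the groups, and the groups overlap for the other 5 genes.

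The receptor for HGF was highly and evenly expressed. MET had normalized counts of 2737.8, 2831.6, 2868.6, 2766.3 and 2768.8 in shPAR1 and of 2871, 2958.2, 2859.8, 2907.2 and 2844.9 in shCtrl libraries. The shPAR1 values were slightly lower and the groups overlapped. The log2 difference of -0.05 (standard error 0.036) did not pass the test in limma (adjusted p = 0.312), and its 95% interval, -0.12 to 0.03, spans 0.918 to 1.02 times the shCtrl level. MET (ENSG00000105976) lies on the plus strand of chromosome 7 from 116672196 to 116798377.

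MST1R, the receptor for macrophage-stimulating protein, had normalized counts of 452.78, 458.09, 419.52, 438.07 and 397.15 in shPAR1 and of 362.73, 415.66, 435.33, 420.65 and 389.16 in shCtrl libraries. These ranges overlapped. Its log2 difference of 0.10 (standard error 0.064, 95% interval -0.04 to 0.23) did not pass in limma (adjusted p = 0.238). The gene (ENSG00000164078, chromosome 3, 49887002 to 49903873, minus strand) overlaps antisense RNAs with 29 counts or fewer per group.

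MST1, which is not a member, was higher in shPAR1 cells. Its normalized counts were 176.63, 160.97, 124.72, 165.61 and 126.23 in shPAR1 and 87.055, 116.96, 100.21, 97.848 and 108.27 in shCtrl libraries, with no overlap. The log2 difference was 0.55 (standard error 0.11, adjusted p = 7.98e-04 from limma). The value is uncertain, since the genome holds near-identical copies of MST1 and the gene overlaps APEH on the other strand (10454 counts in shPAR1, 10686 in shCtrl), and the sources used here give no strand setting.

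The activating protease matriptase was expressed at a low level. ST14 had normalized counts of 7.463, 13.7, 22.677, 26.712 and 16.42 in shPAR1 and of 30.832, 23.392, 28.016, 26.227 and 21.184 in shCtrl libraries. Libraries 1, 2 and 5 lay below all shCtrl libraries, while libraries 3 and 4 lay among them. The log2 difference of -0.65 (standard error 0.27) did not pass in limma (adjusted p = 0.0608), and its 95% interval for this gene alone, -1.22 to -0.09, corresponds to 0.4305 to 0.9412 times the shCtrl level. With 6 to 34 reads per library the precision was low. The call depended on single libraries. Without shPAR1 library 3 the difference was -0.77 (limma adjusted p = 0.0384) and without library 4 it was -0.83 (limma adjusted p = 0.0215), and over all 16 alternatives the adjusted p ran from 0.0215 to 0.197. ST14 (ENSG00000149418) lies on the plus strand of chromosome 11 from 130159782 to 130210362.

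SPINT1, which encodes HAI-1, was the only one of the 6 members chosen by role that passed the test. It was higher in shPAR1 cells, while 0 of the 6 were lower and 5 did not pass, against 40.9% of all tested genes that did. Normalized counts were 190.32, 183.24, 213.16, 180.57 and 184.72 in shPAR1 and 112.45, 135.85, 145.47, 140.21 and 141.23 in shCtrl libraries. Every shPAR1 library exceeded every shCtrl library. SPINT1 rose by a log2 difference of 0.50 (standard error 0.087, adjusted p = 1.72e-04 from limma), or 1.41 times, with a 95% interval of 1.24 to 1.60 times. The adjusted p ranged from 0.00011 to 0.000775 over the 16 alternatives. The gene (ENSG00000166145) lies on the plus strand of chromosome 15 from 40844018 to 40858207.

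SPINT2, which encodes HAI-2, was the most abundant member. It had normalized counts of 7747.1, 8809, 9189.8, 8642.8 and 8217 in shPAR1 and of 8702.8, 8974.5, 9267, 8854.7 and 8949.9 in shCtrl libraries. The groups overlapped, and library 1 was the lowest. The log2 difference of -0.07 (standard error 0.045, 95% interval -0.17 to 0.02) did not pass in limma (adjusted p = 0.211). SPINT2 (ENSG00000167642, chromosome 19, 38244035 to 38292615, plus strand) overlaps PPP1R14A on the other strand, which had 7855 counts in shPAR1 and 10222 in shCtrl cells. Without the strand setting, reads of the pair may not be fully told apart.

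GAB1 had normalized counts of 133.1, 129.29, 115.65, 164.54 and 159.07 in shPAR1 and of 145.09, 118.76, 116.38, 133.15 and 110.63 in shCtrl libraries. Libraries 4 and 5 were above all shCtrl libraries and library 3 was near the lowest of them. The log2 difference of 0.16 (standard error 0.11, 95% interval -0.07 to 0.39) did not pass in limma (adjusted p = 0.257). GAB1 (ENSG00000109458) lies on the plus strand of chromosome 4 from 143336876 to 143474565. Its relative GAB2 had a log2 difference of 0.06 (limma adjusted p = 0.548), whereas GAB3 fell by 0.98 in log2 units (standard error 0.082, adjusted p = 2.90e-08 from limma).

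**Figure D2:**
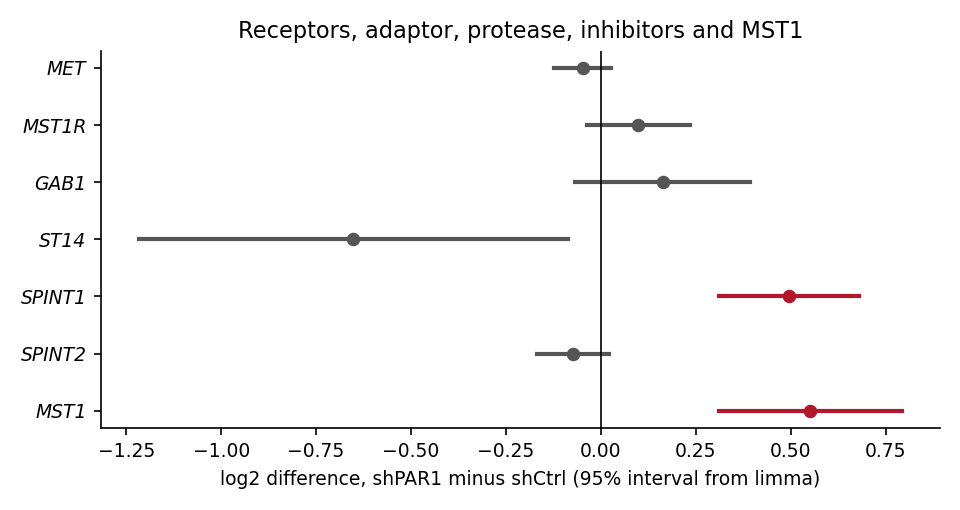
Log2 differences (shPAR1 minus shCtrl) of the members chosen by role and of MST1, with 95% intervals from the fit across all genes. HGF is not shown, and MST1 is not a member. The interval of SPINT1 runs from 0.31 to 0.68 and that of MST1 from 0.31 to 0.79. That of ST14 (not past the adjusted threshold) runs from -1.22 to -0.09, and those of MET, MST1R, SPINT2 and GAB1 include 0.

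Levels were compared between genes as TPM, the reads per exon length of a gene scaled to the same total in every library. In shCtrl cells the order was SPINT2 at 298 ± 22 TPM (SD, n = 5), MET at 67.8 ± 5.0, MST1R at 13.1 ± 1.6, SPINT1 at 6.48 ± 0.93, GAB1 at 2.11 ± 0.27, ST14 at 1.07 ± 0.15 and HGF at 0.0947 ± 0.050. In shPAR1 cells the same genes stood at 276 ± 18, 63.9 ± 4.6, 13.6 ± 1.6, 8.88 ± 0.99, 2.31 ± 0.27, 0.683 ± 0.27 and 5.05 ± 0.51 TPM (SD, n = 5). HGF thus moved from the lowest place to one between SPINT1 and GAB1. The libraries of neighbours in either order did not overlap.

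Ratios within a library set the ligand against its receptor and the inhibitors against the protease. The median TPM ratio of HGF to MET was 0.0813 (range 0.069 to 0.0828) in shPAR1 and 0.00154 (range 0.000234 to 0.00204) in shCtrl libraries. HGF RNA therefore stayed well below MET RNA in both groups. For SPINT1 to ST14 the median was 13.1 (range 7.86 to 29.6) in shPAR1 and 6.21 (range 4.24 to 7.75) in shCtrl libraries. For SPINT2 to ST14 the ranges overlapped, at 262 to 840 and 228 to 342. The ratio of SPINT2 to SPINT1 had medians of 31 and 44.4, with ranges that did not overlap. These ratios are descriptions without a test, and those with ST14 rest on its few reads.

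**Figure D3:**
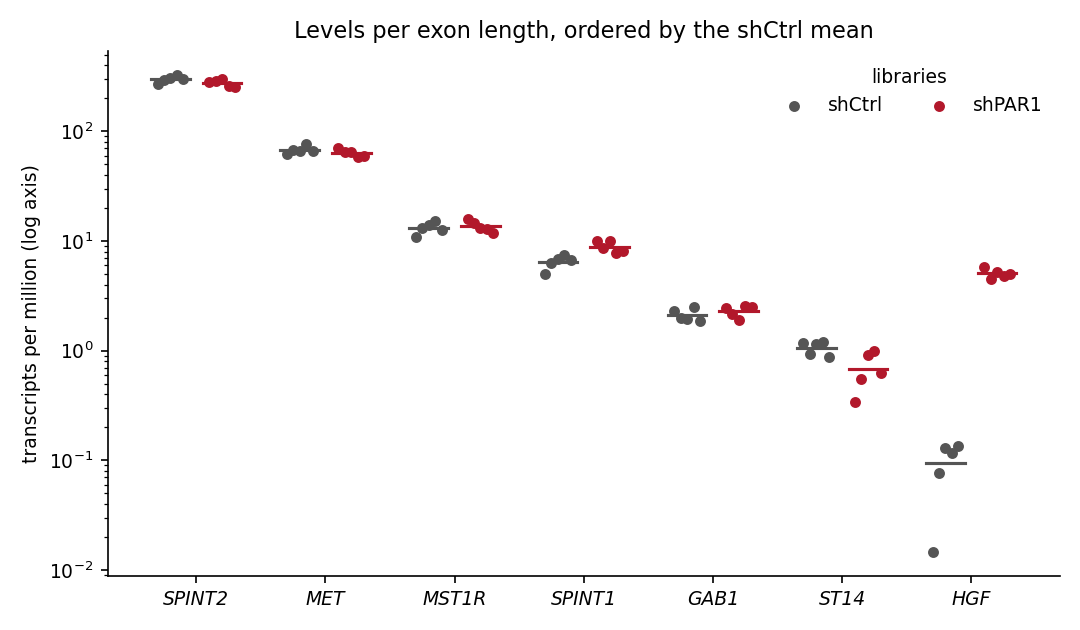
Level of each member gene in TPM (log axis) in the shPAR1 and shCtrl libraries. SPINT2 and MET lead in both groups, and HGF is at 5.05 on average in shPAR1 and at 0.0947 in shCtrl cells.

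Other proteases reported to activate HGF moved in both directions. Of those listed from general knowledge 4 besides ST14 were tested, of which 2 were higher, 1 was lower and 1 did not pass. The 4 had a median log2 difference of 0.34, against -0.0046 over all tested genes, of which 19.0% were higher and 21.9% lower. PLAU, the urokinase that activates plasminogen, fell by 1.04 in log2 units (standard error 0.049, adjusted p = 1.17e-11 from limma). TMPRSS2, a membrane-bound serine protease, had 41.67 to 65.679 normalized counts per shPAR1 library and 18.157 to 29.018 per shCtrl library. It rose by 1.23 (limma adjusted p = 1.18e-05, standard error 0.17). PLAT, the tissue plasminogen activator, had a difference of 0.62 (standard error 0.22, adjusted p = 0.0326 from limma). Its groups overlapped, and the call was lost when library 2, 3, 4, 8, 9 or 10 was left out, at differences of 0.48 to 0.63 (adjusted p 0.0518 to 0.0931). HGFAC, the serum activator of HGF, was too low to test with 40 reads in shPAR1 and 33 in shCtrl cells, as was prostasin (PRSS8) with 25 and 32. HPN (hepsin) was not analysed here. Among 5 tested membrane serine proteases other than ST14, 2 were higher and 0 lower, against 19.0% and 21.9% of all tested genes. A further 3 did not pass, and the median log2 difference of the 5 was -0.04. PRSS22 rose by 0.80 (limma adjusted p = 0.00877).

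Among 8 tested serine protease inhibitors beside the HAI genes, 4 were higher and 3 lower, against 19.0% and 21.9% of all tested genes, with a median log2 difference of 0.19. TFPI, the Kunitz inhibitor of the tissue factor pathway, rose by 1.30 (standard error 0.081, adjusted p = 4.87e-10 from limma). SERPINI1, the neuroserpin that blocks tissue plasminogen activator, rose by 0.88 (standard error 0.15, adjusted p = 1.41e-04 from limma).

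Of 6 tested genes for proteins that matriptase is reported to cut, HGF and ST14 not counted, 2 were higher and 4 lower. Over all tested genes the shares were 19.0% and 21.9%, and the median log2 difference of the 6 was -0.48. Those with the largest changes were PLAU and EPCAM, an epithelial adhesion protein, which fell by 0.78 in log2 units (standard error 0.065, adjusted p = 2.29e-08 from limma). F2RL1, the gene for protease-activated receptor 2, fell by 0.56 in log2 units (standard error 0.038, adjusted p = 1.39e-09 from limma). Among 4 tested genes for kringle proteins and their relatives, HGF not counted, 2 were higher and 1 was lower, beside the same shares. Their median log2 difference was 0.30.

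Genes for proteins reported to act with MET at the membrane were more often higher than lower. Of 20 tested, 11 were higher and 1 was lower, against 19.0% and 21.9% of all genes, and the median log2 difference was 0.16. NRP2, a neuropilin that binds growth factors, had 88.256 to 136.76 normalized counts per shPAR1 library and 7.061 to 9.698 per shCtrl library. Like HGF it passed the filter on low values through the shPAR1 libraries alone. Its rise of 3.63 in log2 units is thus a description, though it counts among the 11 higher genes. ROR1, a receptor of the Wnt5a pathway, rose by 1.30 (standard error 0.095, adjusted p = 4.86e-09 from limma), and CDH1 (E-cadherin) by 1.04 (standard error 0.12, adjusted p = 1.95e-06 from limma). CD44, which presents HGF to MET in some cells, had a difference of 0.00 (limma adjusted p = 0.941).

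Of 17 tested receptor kinases other than MET and MST1R, 11 were higher and 1 was lower, against 19.0% and 21.9% of all tested genes, with a median log2 difference of 0.29. FLT1 (VEGF receptor 1) rose by 3.01 (standard error 0.16, adjusted p = 7.77e-11 from limma) and PDGFRA by 0.94 (standard error 0.066, adjusted p = 3.01e-09 from limma). AXL fell by 0.56 in log2 units (standard error 0.050, adjusted p = 6.36e-08 from limma). EGFR rose by 0.16 (limma adjusted p = 0.00144). It is also in the list of proteins that act with MET at the membrane, so the counts of these lists are not separate observations.

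Among 35 tested docking and adaptor genes other than GAB1, 7 were higher, 11 lower and 17 did not pass. Over all tested genes 19.0% were higher and 21.9% lower. The median log2 difference of the 35 was -0.02. GAB3, PAK1 and IRS2 changed most. PAK1, a kinase of cell motility, fell by 0.77 on the log2 scale (limma adjusted p = 7.49e-10) and IRS2, the insulin receptor substrate, by 0.75 (limma adjusted p = 2.01e-04). Genes for proteins tied to the fate of MET, not all of which limit it, were 7 higher and 10 lower of 26 tested. Their median was 0.02, beside the same shares over all tested genes. CBL, the ubiquitin ligase that marks active MET for degradation, fell by 0.455 on the log2 scale (limma adjusted p = 1.13e-08, standard error 0.036), and its partner SH3KBP1 fell by 0.52 (limma adjusted p = 1.22e-08). CBLB, a relative of CBL, rose by 0.59 (limma adjusted p = 0.00171), and TNS4, an adhesion protein that binds MET, rose by 1.34 (limma adjusted p = 1.44e-06).

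**Figure D4:**
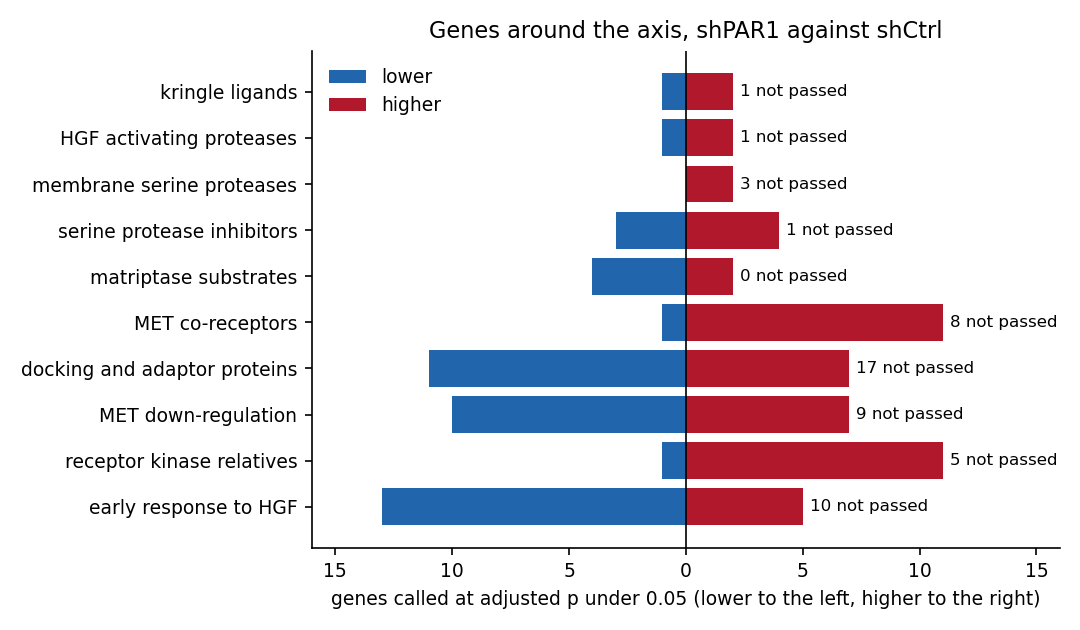
Number of genes in each list, the 7 members not counted, that were lower (left of 0) or higher (right of 0) in shPAR1 than in shCtrl cells at an adjusted p under 0.05. MET co-receptors and receptor kinase relatives have 11 higher and 1 lower gene each, and the early response genes have 5 higher and 13 lower. Over all tested genes 19.0% were higher and 21.9% lower. Lists share genes such as EGFR, so their counts are not separate observations. NRP2 and AREG, counted as higher, passed the filter on low values through the shPAR1 libraries alone.

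Genes known to respond to HGF in epithelial cells were read next. Of 28 tested, 5 were higher, 13 lower and 10 did not pass, against 19.0% higher and 21.9% lower over all tested genes, where lower calls also outnumbered higher ones. The median log2 difference was -0.18. AREG, counted among the 5 higher genes, had at most 7.255 normalized counts per shCtrl library and at least 13.606 per shPAR1 library. It thus passed the filter on low values through the shPAR1 libraries alone. EREG, an EGF receptor ligand, had 127.58 to 170.35 normalized counts per shPAR1 library and 11.696 to 26.298 per shCtrl library and rose by 3.24 (standard error 0.19, adjusted p = 2.19e-10 from limma). MMP1, an interstitial collagenase, rose by 2.43 (standard error 0.073, adjusted p = 4.08e-14 from limma). FOS, an immediate early transcription factor, fell by 1.36 in log2 units (standard error 0.12, adjusted p = 7.26e-08 from limma). EGR1 (-0.45) and DUSP5 (-0.73) were also lower and DUSP6, a phosphatase induced by ERK signaling, had a difference of 0.00. PLAU belongs to this list too. The HGF and MET proteins and their phosphorylation were not measured here.

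Because HGF is a known product of fibroblasts, markers of other cells were read beside it. In bulk RNA, fewer cells of a type and less RNA per cell cannot be told apart. Of 15 fibroblast markers 8 were listed, and their summed level was 419 to 487 CPM (counts scaled to library size) in shPAR1 and 311 to 353 CPM in shCtrl libraries. Of the 8, 5 were higher and 3 lower, against 19.0% and 21.9% of all tested genes, with a median log2 difference of 0.66. COL3A1 rose by 5.28, COL6A3 by 2.56 and SPARC by 1.69 (limma adjusted p = 1.81e-16, 4.08e-14 and 3.48e-13), whereas COL1A1 (-0.43), THY1 (-0.76) and ACTA2 (-0.97) were lower. COL1A2, DCN, LUM, FAP, POSTN, TWIST1 and PDPN were not among the genes analysed here. The part of these markers in the HGF result was not tested.

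Macrophage markers summed to 2.69 to 4.02 CPM in shPAR1 and 2.47 to 3.49 CPM in shCtrl libraries, and endothelial markers to 2.63 to 3.72 and 2.85 to 3.89 CPM. Of the 4 macrophage markers and 1 endothelial marker tested, 0 passed in limma, also at an unadjusted p of 0.05. All 10 markers of pancreatic epithelial lines were listed, of which 4 were higher and 5 lower, against 19.0% and 21.9% of all tested genes. Among them CDH1 rose by 1.04 on the log2 scale (limma adjusted p = 1.95e-06). KRT19, a ductal keratin, fell by 0.82 (limma adjusted p = 2.10e-10) and EPCAM fell by 0.78 (limma adjusted p = 2.29e-08).

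The tested genes with the pattern most like HGF over the 10 libraries, by Pearson correlation of log2 values, were GUCY1A1 (0.9977), SCNN1G (0.9968), TRIB2 (0.9941), SLIT1 (0.994) and the gene ENSG00000279117 (0.9934). GUCY1A1, a subunit of soluble guanylate cyclase, had 158.74 to 195.29 normalized counts per shPAR1 library and 1.814 to 9.698 per shCtrl library. As deviations from the group means these genes correlated with HGF at 0.85 to 0.95. Library 6, in which HGF had 1 read, was the lowest shCtrl library for HGF and for each of these genes. Both kinds of correlation are descriptions. Over the 10 libraries all points share the difference between the groups. The deviations come from the same libraries by which the genes were chosen, so they add no support. Of 15135 genes compared 498 reached 0.95.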

How the data were processed

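Per the labels and the study's methods, the authors used Trimmomatic 0.36 for trimming, HISAT2 2.1.0 for alignment to GRCh38, HTSeq for counting and DESeq2. The sources used here give neither annotation release nor strand setting. What the authors deposited is, per gene and library, a log2 value: the count was divided by the size factor of its library, 1 was added and the logarithm taken. Undoing this gave values within 0.0011 of whole counts, which served for depth, CPM and TPM (GENCODE 44 exon lengths).

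Genes that reached a normalized count of 10 in 5 or more libraries were tested with limma 3.58.1 (R 4.3.3) on the deposited log2 values, with a trended prior and Benjamini-Hochberg adjustment at 0.05 over all tested genes. The step was run on simulated counts as a check of the code, with changes far smaller than that of HGF. That check does not cover genes near 0 in a single group. A gene could pass the filter through a single group. Among those that did so through shPAR1 were HGF, NRP2, AREG and GUCY1A1. Tables used Python 3.11.15, numpy 2.4.6 and pandas 2.3.3.

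Groups came from the labels and matched the file headers in 10 of 10 libraries. The members and lists were chosen with earlier results of these data known. Named are all members, F2R, the 3 most changed called genes of each list with a mean of at least 1 CPM, 9 partners (MST1, GAB2, HPN, HGFAC, PLAU, PRSS8, F2RL1, CBL and EGFR) and the 5 genes most like HGF. A gene that this rule names is not reported here. CD44, AREG, EGR1, DUSP5, DUSP6, COL1A1, THY1, ACTA2, CPN1, LGR5 and TSPAN8 were named after their values were seen.

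The alternatives tried were no filter, a filter of 1 CPM in all libraries of either group, voom with sample weights, a pseudocount of 5, size factors without mitochondrial genes, TMM factors, leaving out each library, and the longest transcript as gene length for TPM.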

Additional observations from a re-analysis of the deposited data

Results flagged for a closer look

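In 94 groups of 5 log2 values (47 named genes, 2 groups each) the highest or lowest library was compared with the rest by its gap, and 6 stood apart. Chance gives about 1 in 20 groups, a rate that does not apply to GUCY1A1 and TRIB2, which were chosen for their likeness to HGF, itself lowest in shCtrl library 6. HGF was 8.05 in shPAR1 library 2, against 8.25 to 8.28 in the other 4. EREG was 7.01 in the same library, against 7.36 to 7.42. TMPRSS2 was 5.42 in shPAR1 library 4, against 5.96 to 6.06. In shCtrl library 6 SPINT1 was 6.83 (7.10 to 7.19 in the others), GUCY1A1 was 1.49 (3.01 to 3.42) and TRIB2 was 9.82 (9.97 to 10.02). Each of these genes kept its direction without that library.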

How the results depend on the processing

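Under all 16 alternatives SPINT1 stayed higher (0.43 to 0.52) and MET, MST1R, SPINT2 and GAB1 did not pass. ST14 passed without shPAR1 replicate 3 or 4, and its differences ran from -0.83 to -0.40 when 1 library was left out. HGF ran from 5.34 to 5.90 with a library left out and was 4.92 with a pseudocount of 5, which lowers the change of a gene with few shCtrl reads by construction. With the members counted in and 1 library left out, activating proteases were 1 to 2 higher and 1 to 2 lower, membrane serine proteases 0 to 1 lower and receptor kinases 1 to 2 lower. Without shPAR1 library 3 or 4 the added lower gene in the first 2 lists was ST14. Without library 8, and with no filter or the filter of 1 CPM, 2 receptor kinases were lower, and with voom 2 MET co-receptors were lower. The cause was not tested. With the longest transcript as length, mean TPM was 6.77 for HGF and 296 for SPINT2 in shPAR1 cells, 53.8 and 56.3 for MET and 12 and 11.4 for MST1R in shPAR1 and shCtrl cells. All genes called were 2977 to 3678 higher and 3406 to 4121 lower. No paired analysis was possible because the groups share no replicate numbers. Depth limits HGF in shCtrl cells (1 to 10 reads per library) and ST14.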

Other observations

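Genes within 1000000 bases of HGF on chromosome 7, chosen after their values were seen, were read in the same fit. Of the 4 that were tested besides HGF, all were higher in shPAR1 cells. CACNA2D1, a calcium channel subunit and the nearest of these genes, had 17340 counts in shPAR1 and 9445 in shCtrl cells and rose by 1.07 on the log2 scale (adjusted p = 1.11e-10 from limma). PCLO, a presynaptic scaffold protein, rose by 1.87 (limma adjusted p = 3.58e-08) and SEMA3C by 0.29 (limma adjusted p = 3.08e-05). The pseudogene MTHFD2P5 was too low to test, with 58 and 51 counts. CACNA2D1-AS1 had 101 counts in shPAR1 and 29 in shCtrl cells, so it passed the filter on low values mainly through the shPAR1 libraries. Its log2 difference of 1.89 rests on few reads and is a description, though the gene counts among the 4 higher ones. CACNA2D1-AS1 overlaps CACNA2D1, and the sources used here give no strand setting. Over all tested genes 19.0% were higher.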
